A study of Mus musculus with 4 samples.

Results

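Zscan4 and the genes that mark the same early embryonic state were followed copy by copy in mouse embryonic stem cells (ESC) kept with or without the histone deacetylase inhibitor MS-275. Of the 28250 genes in the deposited value tables, 11 were taken by name: the 6 listed Zscan4 copies (Zscan4a to Zscan4f), the 3 listed members of the Usp17l deubiquitinase family (Usp17l5, Dub1 and Dub1a), Zfp352 and Tmem92-ps. The set was drawn up with the MS-275 values already known, so those values are given as a description and carry no test. All libraries came from TBV2, a mouse ESC line, which is 1 line with no change of genotype named in the labels. The cells were kept on feeder cells with leukemia inhibitory factor and were then plated on gelatin. Solvent was given for 24 h in 2 libraries (solvent replicates 1 and 2), and 5 µM MS-275 was given for 24 h in the other 2 (MS-275 replicates 1 and 2). Which vehicle the controls received was not settled from the sources. The labels do not say whether replicates were separate cultures, so the spread between them may be technical.

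Zscan4 encodes a protein with zinc fingers and a SCAN domain that is made in the mouse embryo at the 2-cell stage. In ESC cultures it appears in a few cells at a time, together with other genes of that stage and with MERVL endogenous retroviruses, in what is called the 2-cell-like state. The transcription factor Dux switches many of these genes on, while histone deacetylases, the corepressor Trim28, the chromatin assembly factor CAF-1 and other chromatin proteins hold the state down. Zscan4, Usp17l and Tmem92-ps stand in clusters of closely similar copies, so a short read can fit several of them. In bulk RNA, a change in the number of cells in the state and a change in RNA per cell cannot be told apart.

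The copies were located on the mm9 mouse genome (NCBIM37). The stretch shared with the Zscan4c transcript occurred 9 times on chromosome 7, from 11379591 to 12199461. In genome order these were Zscan4a, Zscan4b, Zscan4c, Zscan4-ps1, Zscan4d, Zscan4e, Zscan4f, Zscan4-ps2 and Zscan4-ps3. Over 1673 bases present in all 9, 104 bases varied among the copies and 78 varied among the 6 listed copies. Among the listed copies the closest pairs were Zscan4b and Zscan4e (99.76% identical) and Zscan4c and Zscan4f (99.64%), while Zscan4d was between 96.77% and 97.67% identical to the other listed copies. A read can be assigned to a copy through a base held by that copy alone, or through a combination of bases that no other copy has. Bases of a copy's own were counted where all other copies share 1 letter. Zscan4d held 13 such bases and Zscan4a held 9, against 2 for Zscan4c and 1 each for Zscan4b, Zscan4e and Zscan4f. Bases at which the other copies also differ among themselves are not in these counts.

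The base that sets Zscan4f apart lies in the coding sequence of the last exon, at 11986656 of chromosome 7. The stretch around it is shown because every read of 35 bases that could be given to Zscan4f has to cover this base. It runs 5′ to 3′ on the strand of each gene, with capitals at the bases that vary among the 9 copies. The Zscan4f stretch is chr7:11986622-11986690 on the plus strand, and the Zscan4d stretch is chr7:11748118-11748186 on the minus strand. Counted from 1 at its 5′ end, Zscan4f differs from Zscan4c by C35G.
Zscan4a: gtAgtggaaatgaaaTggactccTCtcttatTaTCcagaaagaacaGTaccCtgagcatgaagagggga
Zscan4b: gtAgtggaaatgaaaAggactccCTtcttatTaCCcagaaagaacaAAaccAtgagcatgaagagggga
Zscan4c: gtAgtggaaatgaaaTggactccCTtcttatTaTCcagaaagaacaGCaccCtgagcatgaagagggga
Zscan4-ps1: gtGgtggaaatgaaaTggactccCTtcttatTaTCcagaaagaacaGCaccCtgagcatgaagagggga
Zscan4d: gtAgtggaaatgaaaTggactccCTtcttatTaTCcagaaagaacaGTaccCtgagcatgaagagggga
Zscan4e: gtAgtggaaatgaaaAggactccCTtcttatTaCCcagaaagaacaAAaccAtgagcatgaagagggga
Zscan4f: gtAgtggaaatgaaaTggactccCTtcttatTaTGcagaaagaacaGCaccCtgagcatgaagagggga
Zscan4-ps2: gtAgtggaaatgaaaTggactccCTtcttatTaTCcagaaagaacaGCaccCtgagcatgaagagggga
Zscan4-ps3: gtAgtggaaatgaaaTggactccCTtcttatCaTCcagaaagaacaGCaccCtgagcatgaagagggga

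Zscan4e holds 1 base of its own in its last exon, at 11892421 of chromosome 7. This base lies in 35 of its 58 windows found once, and the others differ by a combination of bases. It was covered by 163 of 290 MS-275 alignments on Zscan4e in the new files and by 33 of 63 in the old. Its stretch (chr7:11892387-11892455, minus strand) is shown beside those of Zscan4b, its nearest copy, and of Zscan4c and Zscan4d, with the same use of capitals. At this base Zscan4e differs from every other copy by G35A. It is the 1 base of this stretch that separates Zscan4e from Zscan4b.
Zscan4b: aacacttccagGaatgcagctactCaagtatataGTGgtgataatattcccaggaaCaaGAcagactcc
Zscan4c: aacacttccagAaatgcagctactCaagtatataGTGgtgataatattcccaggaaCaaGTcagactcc
Zscan4d: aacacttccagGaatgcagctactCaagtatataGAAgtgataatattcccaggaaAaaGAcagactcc
Zscan4e: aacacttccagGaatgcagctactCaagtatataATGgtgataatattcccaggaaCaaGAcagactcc

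Every window of 35 bases, the length of the deposited alignments, was looked up in the whole genome. Of the windows of Zscan4d, 38.4% (605 of 1575) occurred once, and for Zscan4a the share was 27.6%. It was 4.8% for Zscan4c, 4.3% for Zscan4b, 3.7% for Zscan4e and 2.2% (35 windows) for Zscan4f. Most members outside Zscan4 were easier to tell from their copies. The share was 69.0% for Dub1a, 65.4% for Dub1, 25.7% for Usp17l5, 77.8% for Zfp352 and 64.2% for Tmem92-ps. In Zscan4b, Zscan4c, Zscan4e and Zscan4f, 0 windows differed from every other copy of the family by 2 or more bases, so a single base read wrongly, or a single base that differs between TBV2 and the reference strain, could move a read from copy to copy. The part of such errors was not tested.

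**Figure D1:**
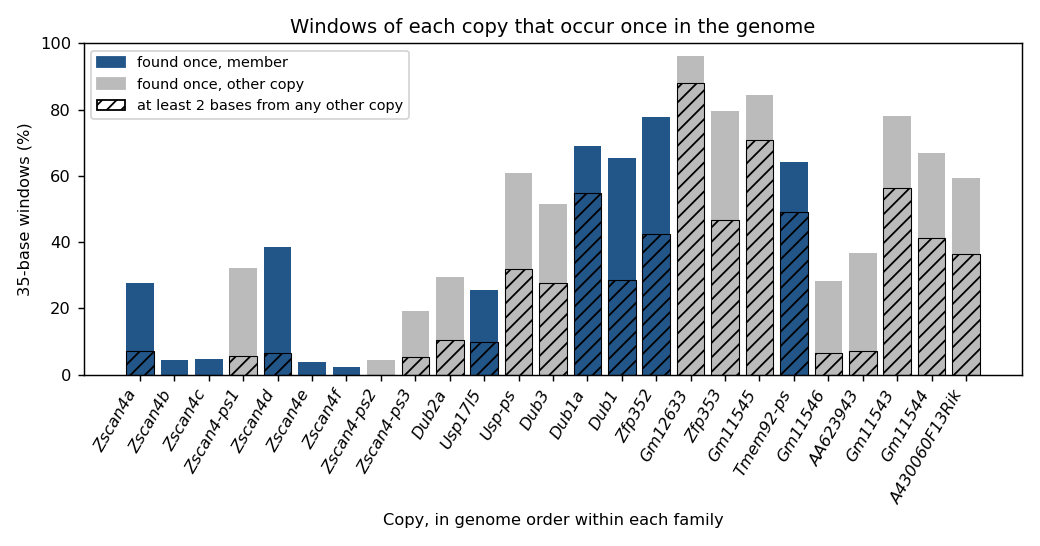
Share of 35-base windows, in percent, that occur once in the mm9 genome for each of 25 copies, with the 11 listed members in blue and other copies in grey. Hatching marks windows at least 2 bases away from any other copy of the family, of which Zscan4b, Zscan4c, Zscan4e and Zscan4f have 0.

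The bases before annotated starts are shown for 4 members, all higher in both MS-275 libraries than in either solvent library, from RefSeq on GRCm38.p6, which is a later build than that of the files. Capitals mark a TATA-type box. The stretches are 250 bases long and end at the base before the start: Zscan4c at chr7:11005495-11005744 (plus strand), Zscan4d at chr7:11166149-11166398 (minus strand), Dub1a, listed there as Usp17lb, at chr7:104842584-104842833 (minus strand) and Zfp352 at chr4:90218570-90218819 (plus strand).
Zscan4c: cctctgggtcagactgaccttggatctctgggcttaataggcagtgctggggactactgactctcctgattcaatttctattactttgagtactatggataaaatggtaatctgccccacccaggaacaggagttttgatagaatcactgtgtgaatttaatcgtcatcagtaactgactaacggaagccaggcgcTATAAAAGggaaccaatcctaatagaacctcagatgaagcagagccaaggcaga
Zscan4d: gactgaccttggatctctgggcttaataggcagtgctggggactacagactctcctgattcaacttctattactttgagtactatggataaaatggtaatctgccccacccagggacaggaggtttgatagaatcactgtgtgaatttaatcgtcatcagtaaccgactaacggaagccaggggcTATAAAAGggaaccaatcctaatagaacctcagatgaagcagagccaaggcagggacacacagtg
Dub1a: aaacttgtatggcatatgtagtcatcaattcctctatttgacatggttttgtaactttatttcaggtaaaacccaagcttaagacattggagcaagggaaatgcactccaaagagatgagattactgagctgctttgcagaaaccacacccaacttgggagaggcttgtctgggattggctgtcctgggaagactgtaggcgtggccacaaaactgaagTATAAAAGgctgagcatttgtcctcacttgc
Zfp352: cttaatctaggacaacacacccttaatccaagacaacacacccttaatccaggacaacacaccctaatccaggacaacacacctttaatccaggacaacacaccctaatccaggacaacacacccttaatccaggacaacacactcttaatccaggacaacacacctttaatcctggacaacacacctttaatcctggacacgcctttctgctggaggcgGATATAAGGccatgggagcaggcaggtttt

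RefSeq gave a start for 8 of the 11 members. The letters TATAAAAG, searched on both strands, were found before 6 of these 8 starts (Zscan4b, Zscan4c, Zscan4d, Zscan4f, Usp17l5 and Dub1a), and before 1.51% of all 32851 starts in the same table. They lay on the strand of the transcript, between 31 and 88 bases before the start. They contain TATAAA, which occurred before 12.4% of all starts. Dub1 has TTTAAAAG at the corresponding place, and Zfp352 has GATATAAGG after a run of near-identical repeats. CCGCCC was found before 0 of the 8 members' starts and 32.7% of all starts, and CACGTG before 0 of 8 and 6.02%. Over the 100 bases before the box, the Zscan4 copies were 93% to 99% identical to each other and Dub1a was 92% identical to Usp17l5, while identity between the families was 24% to 30%. These are descriptions of letters and say nothing of which factors bind there.

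The deposited value of a gene is a normalized expression signal whose formula is not given. All 11 members were listed at 0.001 or more in all 4 libraries. In all 11, both MS-275 values exceeded both solvent values, as they did for 32.3% of the 20336 genes tested across the tables. A difference of 2-fold or more towards MS-275 was seen in each replicate pair for 10 of the 11, against 11.5% of the 28250 genes, and the remaining copy was Zscan4a. Since the members were chosen on this contrast, nothing is read from these counts.

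Zscan4d had the highest MS-275 values of the family. Its value was 0.0416 and 0.0394 in solvent replicates 1 and 2 and 0.178 and 0.359 in MS-275 replicates 1 and 2. The ratio was 4.29 in the first pair and 9.13 in the second, so both MS-275 libraries were well above both solvent libraries while differing from each other. Zscan4d is the copy known for the highest transcript level in 2-cell embryos. Zscan4a started from the same solvent level but moved least. Its values were 0.0424 and 0.0387 with solvent and 0.0819 and 0.0722 with MS-275, a ratio of 1.93 and 1.87. The values of this copy did not overlap between the groups and were alike within them.

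Zscan4c is the copy known for its expression in ESC. It was at 0.00988 and 0.0125 with solvent and at 0.0350 and 0.0988 with MS-275. Zscan4f, which also encodes a full-length protein, was at 0.00615 and 0.00862 with solvent and at 0.02 and 0.0724 with MS-275. In both copies MS-275 replicate 2 was well above MS-275 replicate 1. Zscan4e was at 0.00586 and 0.0156 with solvent and at 0.0383 and 0.115 with MS-275, and here replicate 2 was above replicate 1 in both groups. Zscan4b was the lowest copy, at 0.00350 and 0.00243 with solvent and 0.0146 and 0.0205 with MS-275.

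Summed over the 6 rows, Zscan4 averaged 0.113 ± 0.00559 (SD, n = 2) in the solvent libraries. The MS-275 libraries averaged 0.553 ± 0.262 (SD, n = 2). Such SDs may include a difference between replicates in how repeated alignments were counted, which is described below. The sum was 3.37 times the solvent value in pair 1 and 6.30 times in pair 2. On the log2(value + 0.005) scale the mean difference was 2.16. Zscan4d made up 38.0% and 33.6% of the sum with solvent and 48.4% and 48.7% with MS-275. The share of Zscan4a went from 38.8% and 33.0% to 22.2% and 9.8%. Of the 6 copies, Zscan4d added most to the difference of the sums in both pairs.

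The Usp17l family encodes deubiquitinating enzymes, of which Dub1 is known as a cytokine-induced gene of blood cells. Dub1a was the highest of the 3 with MS-275, at 0.0232 and 0.0131 with solvent and 0.157 and 0.149 with MS-275. Dub1 was at 0.0147 and 0.00788 with solvent and at 0.100 and 0.0738 with MS-275. Usp17l5 was at 0.00680 and 0.00552 with solvent and at 0.0621 and 0.0424 with MS-275. The lowest ratio of the 3 in any pair was 6.76 and the highest 11.3. Their shares of the family sum hardly moved. Dub1a held 52.0% and 49.5% of it with solvent and 49.2% and 56.2% with MS-275. The sum averaged 0.0356 ± 0.0128 (SD, n = 2) in the solvent libraries. In the MS-275 libraries it averaged 0.292 ± 0.0382 (SD, n = 2), and it was 7.14 and 9.99 times the solvent value in the 2 pairs.

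Zfp352 encodes a zinc finger protein of the early embryo and stands on chromosome 4 from 89885511 to 89892393. Its value was 0.0112 and 0.00413 with solvent and 0.0961 and 0.0398 with MS-275. Replicate 1 was above replicate 2 in both groups, the reverse of the Zscan4d order with MS-275, and the ratios of 8.61 and 9.63 were close to each other. Tmem92-ps, a transcript used as a marker of the 2-cell-like state, stands on chromosome 11 from 94638531 to 94644017 and is annotated as protein coding in GENCODE M1 despite its name. Its value was 0.0114 and 0.00918 with solvent and 0.0835 and 0.0969 with MS-275, 7.34 and 10.6 times the solvent value. The replicates of each group lay close together and the groups far apart.

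**Figure D2:**
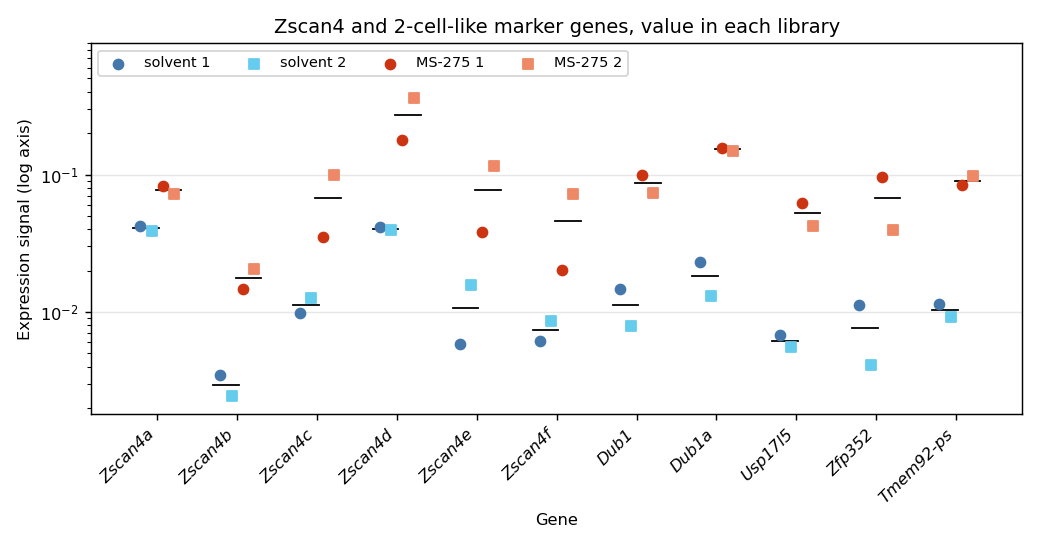
Expression signal (log axis) of each of the 11 genes in the 4 libraries, with circles for replicate 1, squares for replicate 2 and a line at each group's mean. Both MS-275 points lie above both solvent points for every gene, with the smallest gap in Zscan4a (0.0819 and 0.0722 against 0.0424 and 0.0387).

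In rank among the 28250 genes, the members moved from the middle of the table towards its upper part. Zscan4d stood above 62.4% and 66.3% of genes with solvent and above 81.1% and 91.1% with MS-275. Dub1a moved from 57.2% and 56.5% to 78.7% and 80.9%. Zscan4a moved from 62.6% and 66.1% to 68.3% and 71.1%, and Zscan4f from 46.1% and 52.9% to 51.8% and 71.2%. Zscan4b, the lowest member, moved from 41.8% and 42.4% to 48.7% and 56.2%.

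The alignments behind the values were then counted. For each condition there is an alignment file that its name marks as old and another marked as new. The old files held 9785619 (solvent) and 10915650 (MS-275) alignments, and each position and strand occurred at most once. The new files held 23467935 and 20008841, of which 53.2% and 54.4% repeated a position. The members' values of replicate 1 followed the old files and those of replicate 2 the new ones, which is the reverse of how they were deposited. Joined in this way, the value of Zscan4f was 0.00547 for each alignment per 1000000 in all 4 libraries, and that of Zscan4b was 0.00570 to 0.00571. Over the 11 members, the highest of these 4 quotients was 1 to 1.75 times the lowest. Joined as deposited, it was 1.33 to 13.1 times the lowest, and 13.1 for Zscan4f. Across the 11 members, Pearson's r between log2 values and log2 alignments was 0.951 to 0.990 in the first way and 0.569 to 0.846 in the second. The copies are points that share libraries and sequence, and r is a description here. So the value of Zscan4f rested on 11 and 37 alignments with solvent and on 40 and 265 with MS-275, in replicates 1 and 2. Joined in this way, replicates 1 and 2 also differ in whether repeated positions were counted. SDs, pair ratios and orders of replicates given here include this difference. Over all genes the highest value was 1.63 (solvent) and 1.43 (MS-275) in replicate 1, against 34.06 and 47.11 in replicate 2. The part of repeats in this was not tested.

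The new files held 0 alignments at windows of these copies that occur more than once in the genome, and the old files held a few, at most 9 on any copy. In the new files, reads that fit several places exactly were thus left out of the copies and not shared between them. All 37 solvent and 265 MS-275 alignments on Zscan4f in the new files covered the base shown above, as did 11 of 11 and 39 of 40 in the old files. The quotient of value and alignments per 1000000 was between 0.0051 and 0.0113 for all 11 members, whether few or many of their windows were found once. Per 1000 windows found once and per 1000000 alignments, the new MS-275 file held 378 alignments on Zscan4f, 250 on Zscan4e, 117 on Zscan4c, 96.8 on Zscan4d, 53.7 on Zscan4b and 26.1 on Zscan4a. In the old MS-275 file the order was the same, with 102 on Zscan4f, 96.4 on Zscan4e, 53.7 on Zscan4c, 53.1 on Zscan4d, 36.9 on Zscan4b and 30.4 on Zscan4a. By value Zscan4d ranked 1 of 6 and by window it ranked 4 of 6 in both MS-275 libraries. Zscan4f ranked 5 and 4 by value and 1 by window in both. The windows of Zscan4f are 35 neighbours around 1 base, so its rate is that of a single place on the transcript. Zscan4c and Zscan4d were nearly level in the old file (53.7 and 53.1). Both strands carried alignments: 964 of the 2201 on the 6 Zscan4 rows in the new MS-275 file lay on the transcript strand, and 397 of 678 in the old one.

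**Figure D3:**
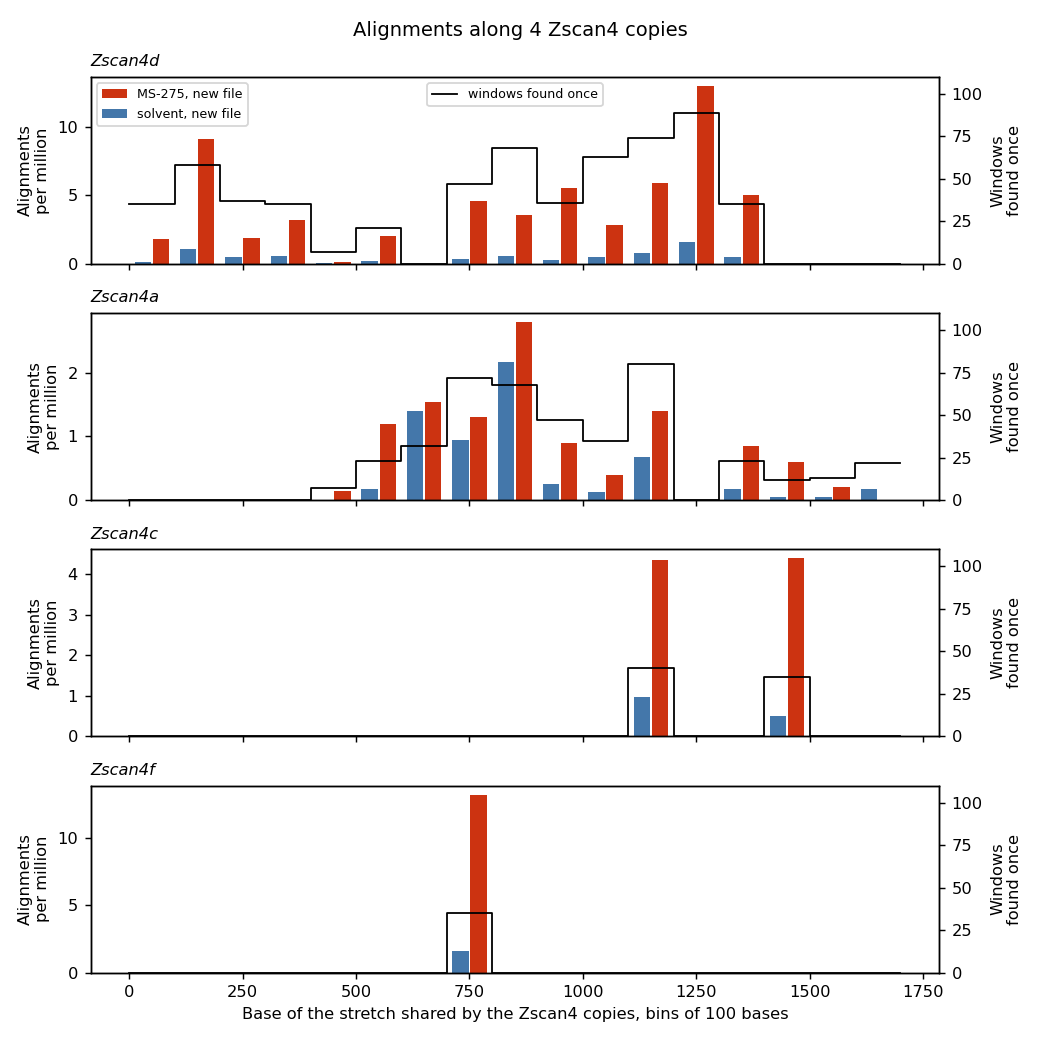
Alignments per 1000000 in bins of 100 bases along the stretch shared by the Zscan4 copies, for Zscan4d, Zscan4a, Zscan4c and Zscan4f in the new solvent file (blue) and the new MS-275 file (red), each panel with its own scale. The black line gives the number of windows found once in each bin (right axis), and no alignment falls where this is 0.

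Alignments lay in 13 of 17 bins of 100 bases for Zscan4d, in 12 for Zscan4a, in 2 each for Zscan4b, Zscan4c and Zscan4e and in 1 for Zscan4f. Zscan4b alone had a bin with windows found once and no alignments. This bin, from base 300, held 35 of its 67 such windows and 0 alignments in all 4 files. Its bins from bases 500 and 900, with 23 and 9 such windows, held 58 and 14 alignments in the new MS-275 file. Whether these alignments came from Zscan4b was not tested. Zscan4d had more alignments per 1000000 with MS-275 in each of its 13 bins of the new files. In Zscan4a, bases 600 to 900 of the shared stretch held 73.1% of the alignments in the new solvent file and 49.8% in the new MS-275 file. In the old files the shares were 51.6% and 40%. The alignments of Zscan4a at windows at least 2 bases from any other copy numbered 64 with solvent and 66 with MS-275 in the new files, a ratio per 1000000 of 1.21 (95% interval 0.844 to 1.73). In the old files they numbered 19 and 41, a ratio of 1.93 (1.10 to 3.53). The same count for Zscan4d was 32 and 217 in the new files (ratio 7.95, 5.47 to 11.9) and 11 and 63 in the old files (5.13, 2.68 to 10.8). These intervals are exact binomial ones and cover counting error only, since reads that repeat a position need not be separate molecules.

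Counting each position once changed the ratios of the new files. The 6 Zscan4 rows together had 439 (solvent) and 2201 (MS-275) alignments in the new files, a ratio of 5.88 (5.31 to 6.53). At distinct positions they had 276 and 716, a ratio, scaled to all distinct positions of each file, of 3.12 (2.71 to 3.60), beside 3.34 (2.83 to 3.96) in the old files. For Zscan4d the ratio was 8.38 with every alignment and 4.46 (3.61 to 5.56) at distinct positions, beside 4.11 (3.21 to 5.33) in the old files. With MS-275, the distinct positions filled 34% of those open to Zscan4d and 42.0% of those open to Zscan4c, against 9.2% and 18.0% with solvent, and a count of distinct positions cannot pass the number open. How much this lowered the ratios was not tested. For the Usp17l rows the ratio was 9.51 (7.75 to 11.8) with every alignment, 6.49 (5.18 to 8.21) at distinct positions and 7.07 (5.53 to 9.17) in the old files. For Tmem92-ps these were 10.2, 6.37 and 8.19, and for Zfp352 8.95, 7.57 and 9.01. Zscan4a stayed the lowest in all 3 ways of counting, at 1.84, 1.60 and 2.03.

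The members differed in how often positions repeated. In the new MS-275 file, 85.3% of the Zscan4f alignments, 80.0% of the Zscan4e alignments and 64.8% of the Zscan4d alignments repeated a position, against 26.2% for Zfp352 and 25.4% for Dub1. The alignments of Zscan4f filled 55.7% of the 70 positions and strands open to it, and those of Zscan4e 50.0% of 116, while those of Zfp352 filled 4.0% of 2670. With solvent, Zscan4f filled 20.0% and Zscan4e 20.7%.

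**Figure D4:**
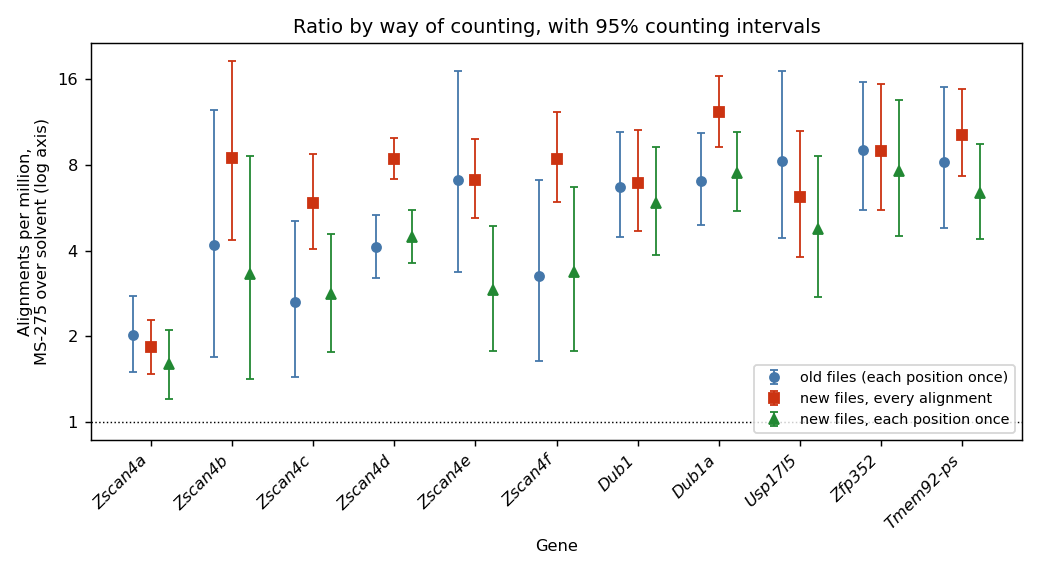
Ratio of alignments per 1000000 with MS-275 to solvent (log axis) for each gene in the old files (circles), in the new files with every alignment (squares) and in the new files with each position and strand counted once (triangles), with exact 95% counting intervals. For Zscan4d the 3 ratios are 4.11, 8.38 and 4.46, and Zscan4a is lowest in all 3.

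Alignments also fell on copies that the member rule does not take. Zfp353, the copy of Zfp352 on chromosome 8 and 95.31% identical to it, had 0 (solvent) and 60 (MS-275) alignments in the old files. Against a floor of 3 alignments this is at least 17.9-fold higher. In the new files it had 2 and 43, a ratio of 25.2 (6.57 to 215). Beside Tmem92-ps on chromosome 11, Gm11543 had 49 and 271 alignments in the new files (ratio 6.49, 4.77 to 8.98) and Gm11545 had 24 and 118 (5.77, 3.69 to 9.36). AA623943 had 25 and 94 (4.41, 2.81 to 7.16). Of 14 such copies, 10 had alignments with solvent in both files, and all 10 had a ratio over 2 in both. Gm11546 is among them, with 1 and 3 alignments in the old files (2.69, 0.216 to 141). What share of all genes exceeds this ratio of alignments was not counted, so nothing is read from the 10. By value, the 2-fold rule took 11.5% of the 28250 genes towards MS-275. Usp-ps and Gm12633 had 0 alignments in all 4 files, which allows up to 0.307 per 1000000 in the shallowest.

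By the distance between centred log2 profiles over the 4 libraries, the genes most like the summed Zscan4 rows were Tmem158, Ankrd22, Gm3925, Id4 and Cox8c, among 11616 genes with a value of 0.05 or more in some library. Tmem158, a membrane protein, was nearest (distance 0.071), at 0.0132 and 0.0132 with solvent and 0.0526 and 0.112 with MS-275. Id4, an inhibitor of basic helix-loop-helix factors, was at 0.0197 and 0.0238 with solvent and 0.0828 and 0.146 with MS-275. The summed Usp17l rows were farther from Zscan4 than 666 genes were. Their MS-275 replicate 1 was above replicate 2, the reverse of Zscan4. A profile over 4 libraries is a thin description.

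Other genes known from the 2-cell-like state were taken from a list of 67 entries other than the 11 members, of which 52 were in the tables. Zfp353, the copy of Zfp352, is among them. By the same 2-fold rule 26 of these 52 were higher with MS-275 and 2 were lower, against 11.5% and 2.04% of all genes. Values passed the filter on low values for 33, and 5 of these did so only through the MS-275 libraries. Their median log2 fold change was 1.43, beside 0.20 over all 20336 genes tested. It was 0.60 when no filter was used, beside 0.06, and 0.80 and 2.26 with pseudocounts of 0.02 and 0.001. In 24 of the 33 both MS-275 values were above both solvent values, and in 3 both were below, against 32.3% and 12% of all genes tested. The 24 include the 5 genes that passed only through the MS-275 libraries. For these 5 the filter itself fixed this outcome. Without a replicate block, limma called 0 of the 33 at an adjusted p of 0.05, against 0.00492% of all genes higher and 0% lower. Before adjustment, p was under 0.05 for 24 higher and 3 lower, against 14.6% and 2.77% of all genes. A count of 0 in this fit does not show that values did not differ, here and in the lists that follow. With the replicate number as a block, 26 were called higher and 3 lower, against 21% and 6.46% of all genes. Of the 28 genes that did not pass through the MS-275 libraries alone, 21 were called higher and 3 lower. The median log2 fold change of these 28 was 1.6. Without Zfp353 the calls were 25 and 3 of 32. After quantile normalization with the block the calls were 21 and 4, against 13.8% and 13.7%.

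Spz1, a transcription factor of the testis, had the largest difference. It was at 0.000650 and 0.00300 with solvent and at 0.155 and 0.246 with MS-275, a log2 fold change of 4.90 (limma adjusted p = 0.0581 without the block and 1.61e-07 with it). Arg2, the mitochondrial arginase, was at 0.0289 and 0.0153 with solvent and at 0.262 and 0.306 with MS-275 (log2 fold change 3.46). Gm12794, a Prame-family gene, was at 0.0162 and 0.0270 with solvent and at 0.150 and 0.408 with MS-275 (3.28). The 3 smallest were AU018091 (-1.43), Tcl1 (-1.24), a coactivator of Akt that is high in ESC, and Eif1a (-0.66), a translation initiation factor. AU018091 was at 0.486 and 0.633 with solvent and at 0.247 and 0.166 with MS-275 (limma adjusted p = 0.128 without the block and 0.000746 with it). The adjusted p of Eif1a was 0.721 without the block and 0.103 with it.

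Of 8 genes known to promote the state, limma called 0 without the block (before adjustment, 3 higher and 1 lower) and, with it, 4 as higher and 1 as lower (21% and 6.46% over all genes). Of these 4, 3 (Dppa3, Dux and 4933403O03Rik) are also counted among the 2-cell-like calls above. Dppa3, a maternal factor also called Stella, was at 0.0162 and 0.0234 with solvent and at 0.0731 and 0.413 with MS-275 (log2 fold change 2.88, limma adjusted p = 0.0855 without the block and 3.73e-05 with it). Dux was at 0.00101 and 0.000840 with solvent and at 0.0104 and 0.00642 with MS-275 (1.16, 0.0904 and 0.00255). The related row 4933403O03Rik was at 0.000920 and 0.000580 with solvent and at 0.00618 and 0.00585 with MS-275 (0.94). This row passed the filter on low values only through the MS-275 libraries, so nothing is read from its call. Dux genes stand in repeats too, and how many of their reads could be placed was not measured. Tbx3 was at 0.435 and 0.790 with solvent and at 0.245 and 0.194 with MS-275 (-1.41, 0.155 and 0.00137). Dppa2 (-0.03) and Dppa4 (-0.28), which act upstream of Dux, did not pass either fit (limma adjusted p of 0.987 and 0.825 without the block, 0.929 and 0.357 with it).

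Of 31 genes known to hold the state down, limma called 0 without the block (before adjustment, 0 in either direction) and 1 higher and 1 lower with it. Their median log2 fold change was -0.18, against 0.20 over all genes. In both pairs 17 of the 31 were lower and 7 higher, against 26.5% and 50% of all genes tested. Both MS-275 values were below both solvent values in 9 and above them in 3, against 12% and 32.3%. When the median of all genes was brought to -0.01 by median-ratio scaling, 10 of the 31 were called lower with the block and 0 higher (13.8% and 16.4% of all genes), and after quantile normalization 5 lower and 1 higher. The gene called higher with the block was Hdac1, a deacetylase that MS-275 itself inhibits. Hdac1 was at 0.0311 and 0.165 with solvent and at 0.0423 and 0.360 with MS-275 (log2 fold change 0.75, limma adjusted p = 0.803 without the block and 0.0343 with it). Ring1 (0.60) and Ep400 (0.49) at the upper end, and Rnf2 (-0.63) and Pcgf6 (-0.60) at the lower, passed neither fit.

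**Figure D5:**
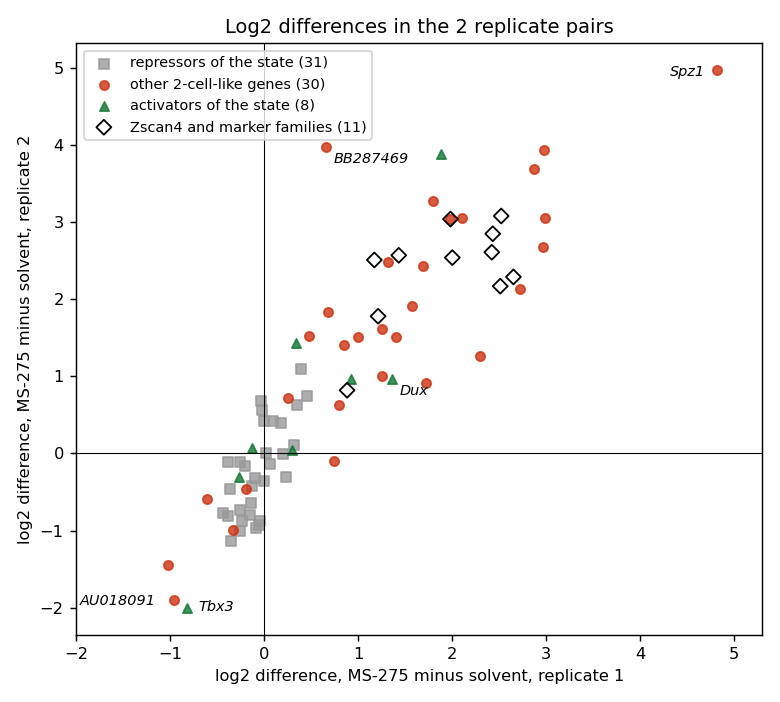
Log2 differences of value + 0.005, MS-275 minus solvent, in replicate pair 1 (horizontal) and pair 2 (vertical) for the 11 genes (open diamonds), 30 other 2-cell-like genes (circles), 8 activators (triangles) and 31 repressors (squares). Most 2-cell-like genes lie in the upper right with the 11, up to Spz1 at 4.82 and 4.97. The repressors lie around 0, with 17 of the 31 below 0 in both pairs (26.5% of all genes tested).

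The 4 libraries carried ESC markers, with 14 of 14 listed at 0.001 or more. Their summed value was 8.07 and 28.4 with solvent and 6.71 and 17.3 with MS-275, and limma called 0 lower without the block. With the block 4 were called lower (6.46% of all genes were), Fgf4 (log2 fold change -1.56), Utf1 (-1.45), Esrrb (-1.34) and Pou5f1 (-0.95). Fbxo15 (-0.04), Dppa5a (-0.22) and Nanog (-0.23) stood at the other end. The sum of 12 fibroblast markers, which feeder cells would carry, was 0.351 and 0.306 with solvent and 0.637 and 0.682 with MS-275. It moved the same way as the members. Col1a1 (2.41), Fbn1 (1.37) and Pdgfrb (1.20) were highest and Dcn (-0.72), Col3a1 (-0.52) and Prrx1 (-0.36) lowest among them, and limma called 0 higher without the block and 6 with it (21% of all genes). Of 12 oocyte markers, Oosp1 and H1foo were listed at 0 in all libraries and 2 others stayed under 0.001. Their sum (0.232 and 0.678 with solvent, 0.316 and 1.57 with MS-275) was mostly Gdf9. Figla (1.82), Nobox (1.35) and Zp3 (0.69) had the largest differences and Lhx8 (-0.24), Zp2 (-0.19) and Zp1 (0.25) the smallest. Nobox, at 0 and 0.00068 with solvent, passed the filter on low values only through the MS-275 libraries. The part of feeder or other cells in the members' values was not tested.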

How the data were processed

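RNA-seq values of 2 solvent and 2 MS-275 libraries were analysed. The authors mapped reads to mm9 and made a normalized expression signal per gene with Genomatix; the deposited value tables hold this signal for 28250 genes, and its formula, the aligner and the handling of repeats are not given in the sources used here. Ratio tables hold the authors' own comparisons and were not used. The deposited alignments, 35 bases long, numbered 9785619 to 23467935 per file and limit the precision; the value of a low copy rests on a few of them. Libraries were grouped by title, and the label of a duplicate gave replicate 2.

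Members and gene lists were chosen with earlier results of these data known. All genes at 0.001 or more in at least 2 libraries (20336) were fitted on log2(value + 0.005) with limma 3.58.1 in R 4.3.3 (eBayes with a trend, no block, Benjamini-Hochberg, threshold 0.05), and p-values measure the spread between these samples. Without the block, this spread includes any difference between replicates 1 and 2 in how repeated alignments were counted. Replicate numbers pair the libraries by column headers in the authors' shorter tables, where the word old marks replicate 1 under solvent and under MS-275; deviations from the group means correlated at 0.764 between libraries of the same number. A fit with this block is given where it changes a call. The 2-fold rule set values under 0.001 to 0.001. Both fits were run on simulated data in which known genes changed. Counts of 0 without the block do not show that values did not differ. Named list genes are the 3 with the largest and the 3 with the smallest log2 fold change. A repressor that this rule takes is not reported here. List symbols were matched by symbol, or by Entrez identifier through the RefSeq table.

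Copies were found with BLAST 2.17.0+ on NCBIM37 (mm9) from GENCODE M1 transcripts. Zscan4a, Zscan4-ps1 and Zscan4-ps3, not annotated there, were named by gene order in the RefSeq table. Windows and alignments were compared by exact position in Python 3.11.15, with exact binomial 95% intervals from scipy 1.17.1. Alternatives were other pseudocounts, filters and scalings, eBayes without a trend, each library left out, distinct positions and the transcript strand alone. Added after seeing the data were the block with each scaling and windows at least 2 bases from any other copy, and the 2-cell-like list without Zfp353 or without genes that passed the filter only through MS-275.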

Additional observations from a re-analysis of the deposited data

Results flagged for a closer look

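Of the family copies found on mm9, 6 have no row in the value tables that were used. Of these, 5 carried more alignments per 1000000 with MS-275 than with solvent in both the old and the new files, with counting intervals of the ratio above 1. They were noted because the comparisons of values do not use them. How many of all genes pass the same rule on alignments was not counted, so nothing is read from the count of 5. By value, 50% of the 20336 genes tested were higher in both pairs. Zscan4-ps1 had a ratio of 4.31 in the old files (16 alignments with solvent and 77 with MS-275) and 2.83 in the new files (29 and 70). Zscan4-ps2, annotated as protein coding in GENCODE M1 although its name marks it as a pseudogene, had ratios of 4.34 (13 and 63) and 4.43 (71 and 268). Zscan4-ps3 had ratios of 5.28 (28 and 165) and 7.18 (51 and 312). Dub2a had ratios of 6.52 (11 and 80) and 14.7 (7 and 88). Dub3, a copy of Dub1 with 51.5% of its windows found once, had ratios of 6.90 (49 and 377) and 10.5 (60 and 539). In the new MS-275 file, Zscan4-ps2 and Zscan4-ps3 held 9.4% and 10.9% of all alignments on the 9 Zscan4 copies, and Zscan4d held 41.1%. No window of Zscan4-ps2 lies 2 or more bases from every other copy.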

How the results depend on the processing

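Values rest on 2 libraries a group and, for low copies, on few alignments; copies with few windows found once cannot be separated better at this read length. Without the block, 1 of all genes was called higher and 0 lower. Pseudocounts of 0.001 or 0.02, no filter, quantile normalization, median-ratio scaling and eBayes without a trend each gave 0 higher. A mean value of at least 0.01 gave 466 higher and 65 lower, with 7 2-cell-like genes and 1 activator higher. The replicate block gave 4277 higher and 1314 lower over all genes, 26 and 3 for 2-cell-like genes, 1 and 1 for repressors and 4 and 1 for activators. With quantile normalization and the replicate block these were 2812 and 2783, 21 and 4, 1 and 5, and 3 and 1. With median-ratio scaling and the block they were 3344 and 2806, 26 and 4, 0 and 10, and 3 and 1. The median over all genes, 0.20, became -0.03 after quantile normalization and -0.01 after median-ratio scaling, with or without the block, and that of the activators (0.53) ranged from -0.02, without MS-275 replicate 2, to 0.77. The 2-cell-like median (1.43) was 2.06 with a mean value of at least 0.01, and that of the repressors (-0.18) was -0.46 after median-ratio scaling.

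The log2 difference of Zfp352 (2.47) was 2.99 with a pseudocount of 0.001, 1.60 with 0.02 and 2.11 after quantile normalization. That of Tmem92-ps (2.64) was 3.02, 1.86 and 2.22, and that of the Usp17l sum (2.90) was 2.50 with 0.02 and 2.47 after quantile normalization. The 2-fold rule gave 1263 higher and 362 lower with a floor of 0.01, and 1815 and 182 at 3-fold, against 3256 and 575. In the new files the Zscan4 ratio of 5.88 was 3.12 at distinct positions and 3.46 at windows with 2 or more differences. The 3.46 covers Zscan4a and Zscan4d alone, since Zscan4b, Zscan4c, Zscan4e and Zscan4f have 0 such windows. At these windows Zscan4a had a ratio of 1.21 and Zscan4d of 7.95, beside 1.84 and 8.38 with every alignment. The Usp17l ratio of 9.51 was 6.49 at distinct positions. The Tmem92-ps ratio of 10.2 was 6.37 at distinct positions and 15.7 on the transcript strand, where the Zfp352 ratio of 8.95 was 15.1. Beyond the copies that could be counted, the cause of these shifts was not tested.

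With each library left out in turn, a lone library was assumed to vary like the others and carried its replicate's offset. Calls ranged from 0 to 160 higher and 0 to 29 lower over all genes, 0 to 4 higher for 2-cell-like genes, 0 to 1 higher for activators, and 0 for every other list count. The log2 difference ranged from 1.66 to 2.65 for the Zscan4 sum, 2.57 to 3.23 for the Usp17l sum, 1.88 to 3.06 for Zfp352 and 2.54 to 2.74 for Tmem92-ps.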
